A study of Canis lupus familiaris with 58 samples.

Results

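Fine needle aspirates from 19 pet dogs with B-cell lymphoma were compared with lymph node samples from 32 dogs with diffuse large B-cell lymphoma (DLBCL, a fast-growing cancer of large B lymphocytes), chosen by the labelled source of the sample and, for the nodes, the veterinary pathology diagnosis. These 51 arrays, 1 per dog, came from a set of 58, and 7 lymph node marginal zone lymphomas were left out. Both groups were taken from untreated, client-owned dogs of unstated breed and age, and the tumours had been recognised as B cell by flow cytometry or immunohistochemistry. The diagnosis of all 19 aspirates was labelled unknown, so the way of sampling and the mix of lymphoma types cannot be told apart. The labelled mutation status of IGHV, the variable gene of the antibody heavy chain, was static in 7, ongoing in 11 and ND, which the labels do not explain, in 1 aspirate, against 18, 12 and 2 node samples (Fisher's exact p = 0.234).

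A fine needle aspirate draws loose cells, tissue fluid and some blood through a thin needle, while a piece of lymph node keeps the cells together with their connective tissue and vessels. Circulating red cells carry haemoglobin, made of alpha-type and beta-type globin chains, and young red cells (reticulocytes) still hold globin messenger RNA. Platelets also carry messenger RNA from the megakaryocytes that shed them. In lymph node tumours, T cells, macrophages, fibroblastic stroma and endothelium lie among the lymphoma cells.

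Transcript levels were read as log2 values on Affymetrix canine arrays, and 15115 genes were tested, each through its probe set of highest mean across the 58 arrays. Array medians ran from 7.08 to 7.21 in aspirates and from 7.11 to 7.21 in nodes, and precision was limited by how many arrays there were. The mean correlation of an array with the others was 0.968 ± 0.0092 (SD, n = 19) in aspirates and 0.969 ± 0.0059 (n = 32) in nodes (permutation p = 0.450). RNA integrity, read as the gap between 3' and 5' control probe sets of GAPDH and ACTB, stood at 0.505 ± 0.40 and 0.551 ± 0.61 (permutation p = 0.922). Standing apart on it were the aspirate of dog 12 (1.95) and the node of dog 41 (3.77), against 0.801 for the next array. The aspirate of dog 12 also had the lowest mean correlation, 0.940.

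The B-cell label was checked on 4 B-cell antigen and identity genes. MS4A1, which encodes CD20, had a lowest, median and highest level of 10.90, 12.70 and 13.66 in aspirates and 6.96, 12.74 and 13.79 in nodes. The node of dog 22 was the lowest at 6.96, but its CD79A and CD79B levels, 8.61 and 10.42, lay within the range of the other nodes. In the aspirate of dog 42, CD79A (6.37) and CD79B (7.98) lay below every node (lowest 6.71 and 8.41) while MS4A1 was the highest of the aspirates, and without this array 22 genes in place of 5 were called higher in the comparison below. CD79A and CD79B, the signalling chains of the B-cell receptor, differed by 0.13 and 0.32 (aspirate minus node, log2), and the B-cell identity factor PAX5 by 0.032. None of these differences passed the test described next. A positive difference was seen in 11 of 15 measured B-cell genes, against 46.6% of all genes.

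With limma's moderated test and Benjamini-Hochberg adjustment over all 15115 genes, 5 genes were higher in aspirates (0.0331% of those tested) and 1 was lower (0.00662%) at an adjusted p under 0.05, 6 in all (0.0397%). These counts depended on single arrays and on the setting: leaving out 1 array gave 4 to 22 higher and 0 to 7 lower, array weights gave 88 calls and the rank-sum test 0. The largest differences by far were in a pair of globin-region genes. At an unadjusted p under 0.05, 860 genes (5.69%) were higher and 715 (4.73%) lower, 1575 in all (10.4%). The median difference over all genes was -0.00724, 7051 genes (46.6%) had a positive difference, and for 0 genes (0%) did the ranges of the groups fail to overlap.

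LOC476825 was the gene with the largest difference. In the RefSeq gene table it lies beside LOC480784, LOC609402, LOC485255 and HBE1, in the region of the beta-type globin genes. Its lowest, median and highest levels were 4.00, 8.97 and 13.46 in the 19 aspirates and 3.57, 4.07 and 8.70 in the 32 nodes. The ranges overlapped, with 10 aspirates above the highest node and 16 above the node median. Its mean was 9.11 ± 3.49 (SD, n = 19) against 4.57 ± 1.15 (n = 32), a difference of 4.54 ± 0.65 (SE) or 23.2-fold (limma adjusted p = 8.86e-05). In bulk samples, fewer cells of a type and less RNA per cell cannot be told apart, here and in the other genes.

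The aspirates did not form a continuous range for LOC476825. There were 5 aspirates at or below 4.29 and 14 at or above 8.22, with none between. Of the nodes, 31 lay below 8.22, the exception was the node of dog 19 at 8.70, and the next node stood at 7.18.

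LOC100855558 lies between LOC100855540 and HBM and near HBQ1, in the region of the alpha-type globin genes. It had a lowest, median and highest level of 9.20, 13.24 and 14.61 in aspirates and 8.80, 9.83 and 13.04 in nodes. The highest node was again dog 19, and the next was 11.01. All 14 aspirates on the upper side of the LOC476825 gap lay at 11.05 or above, while the other 5 lay at 10.16 or below. The means of 12.48 ± 2.02 (SD, n = 19) and 9.94 ± 0.76 (n = 32) differed by 2.54 ± 0.39 (SE), a fold of 5.81 (limma adjusted p = 0.000173). The other probe set of LOC100855558 differed by 4.12, with a limma adjusted p of 0.000212 over all 42860 probe sets.

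The 14 aspirates on the upper side of the gap held a further gap in LOC476825, from 8.97 (dog 31) to 10.54 (dog 12). LOC100855558 was at most 13.24 (dog 52) below that further gap and at least 13.44 (dog 20) above it. Correlations over all 14 therefore include the offset between these sides, and the relation within each side was not tested. Over the 14, LOC476825 and LOC100855558 were correlated. Pearson's r was 0.713 (permutation p = 0.00332, adjusted 0.00664) and Spearman's rho 0.635 (permutation p = 0.0173, adjusted 0.0346), adjusted over 2 relations. Without the 2 dogs farthest from the median of LOC476825, r was 0.678 over 12 dogs. Against ALAS2, which makes the first enzyme of haem synthesis in red cell precursors, the relation did not pass (r = 0.422, permutation p = 0.132, adjusted 0.132; rho = 0.429, permutation p = 0.127, adjusted 0.127; r = 0.343 without the same number of dogs).

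Differences in other red cell genes were far smaller. ALAS2 ran from 7.57 through a median of 8.16 to 9.80 in aspirates and from 7.44 through 7.77 to 8.20 in nodes. There were 7 aspirates above the highest node, but its difference of 0.60 ± 0.13 (SE) did not pass over all genes (limma adjusted p = 0.0565). The same probe set passed over all 42860 probe sets (limma adjusted p = 0.0345), and ALAS2 passed in 5 of 12 alternative settings. ALAS2 has 1 probe set, so settings that changed the probe set per gene left its values the same. The erythroid transcription factor GATA1 differed by 0.18, the embryonic globin HBE1 by 0.13, the red cell membrane anion exchanger SLC4A1 by -0.12 and FECH, the last enzyme of haem synthesis, by -0.19. LOC480784 and LOC485255, neighbours of LOC476825, differed by -0.0035 and 0.15. Of 26 measured red cell and globin genes, 16 had a positive difference, 2 were called higher and the median difference was 0.045, against 46.6% positive and -0.00724 over all genes. HBM and HBQ1 were not measured through a probe set of 1 symbol.

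**Figure D1:**
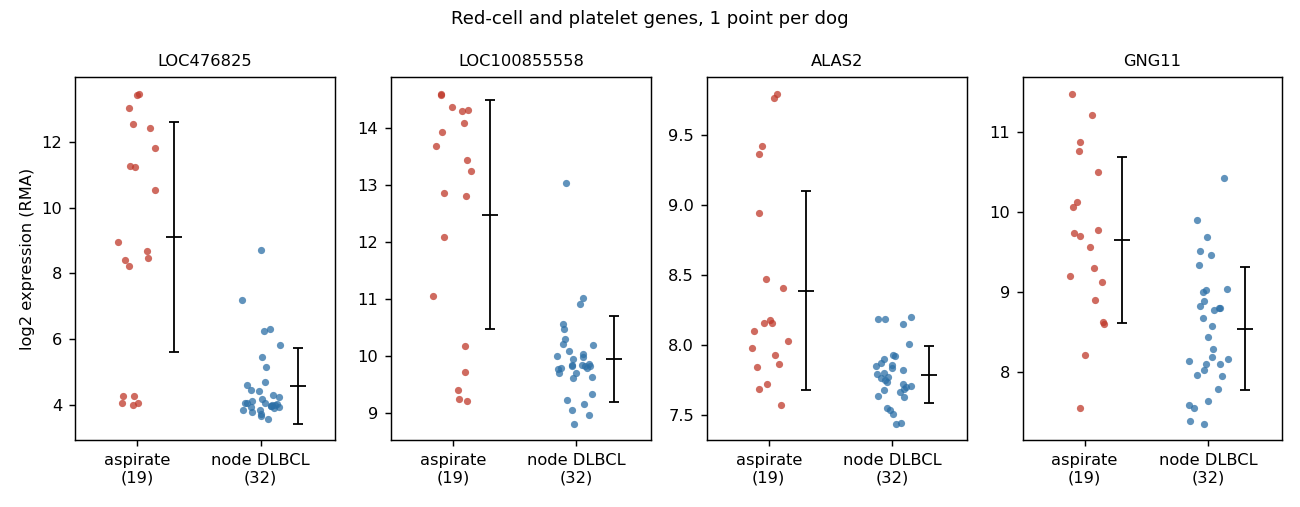
Log2 expression of LOC476825, LOC100855558, ALAS2 and GNG11 in 19 aspirates and 32 lymph node DLBCL samples; each point is 1 dog, the bars show the mean and 1 SD, and the vertical axes do not start at 0. In LOC476825, 5 aspirates lie at or below 4.29 and 14 at or above 8.22, and the highest node is at 8.70.

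The remaining genes past the threshold differed by less than 0.4 on the log2 scale. PLEKHH2, a membrane-associated protein of the actin cytoskeleton, had a lowest, median and highest level of 6.33, 6.61 and 6.95 in aspirates and 6.14, 6.40 and 6.62 in nodes. In PLEKHH2, 9 aspirates lay above the highest node and 17 above the node median, and the difference was 0.23 ± 0.041 (SE; limma adjusted p = 0.00531). This call held for 1 of its 3 probe sets: the mean of the probe sets gave 0.12 (adjusted p = 0.101) and the most variable probe set 0.054 (adjusted p = 0.811).

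UTS2B, the precursor gene of a urotensin-related peptide, ran from 4.34 through 4.60 to 5.30 in aspirates and from 4.09 through 4.42 to 4.63 in nodes. All these levels lay below the array medians (7.08 to 7.21), and they were not set against a measure of background. There were 8 aspirates above every node, and 18 above the node median, with a difference of 0.31 ± 0.061 (SE; limma adjusted p = 0.0159). SLC35C2, a transporter-family gene linked to protein fucosylation, ran from 9.09 through 9.35 to 9.69 against 8.78 through 9.13 to 9.39. For SLC35C2, 7 aspirates lay above the highest node and the difference was 0.25 ± 0.051 (SE; limma adjusted p = 0.0357). Its other probe set differed by 0.20 and did not pass (limma adjusted p = 0.242 over all probe sets).

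CBX1, which encodes heterochromatin protein 1 beta, was the gene called lower. Its levels were 7.81, 8.89 and 9.16 (lowest, median and highest) in aspirates and 8.66, 9.15 and 9.45 in nodes. Only 1 aspirate was above the node median, and 28 of 32 nodes were above the aspirate median, with a difference of -0.36 ± 0.076 (SE; limma adjusted p = 0.0454). Without the aspirate of dog 12, the adjusted p was 0.0962 for CBX1 (-0.33) and 0.0916 for SLC35C2 (0.24), so both calls ended.

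**Figure D2:**
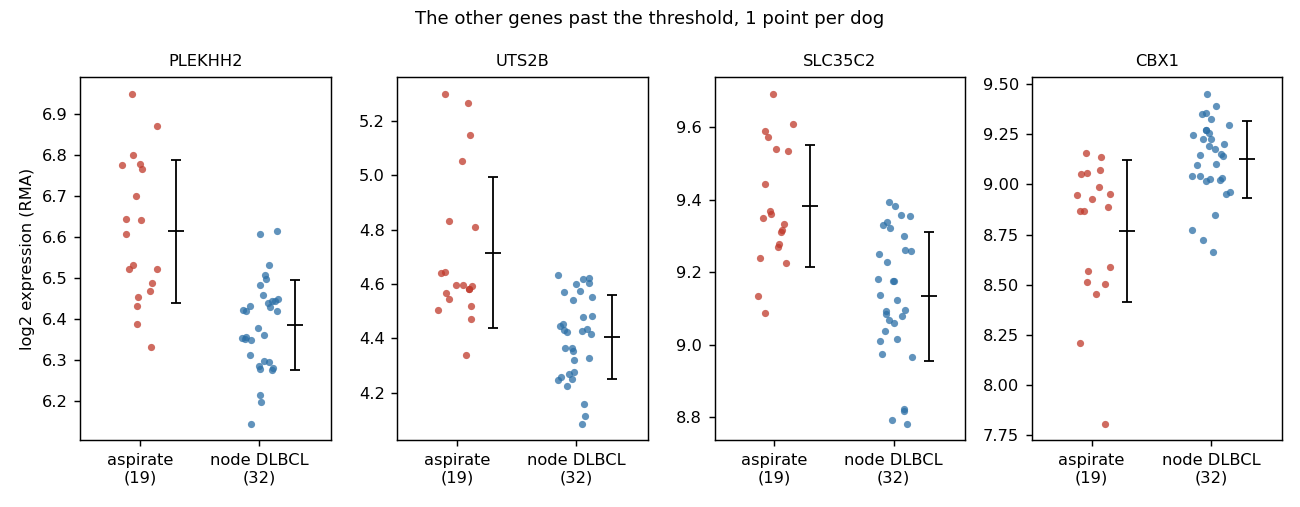
Log2 expression of PLEKHH2, UTS2B, SLC35C2 and CBX1, the other genes past the threshold, in 19 aspirates and 32 lymph node DLBCL samples; each point is 1 dog, the bars show the mean and 1 SD, and the vertical axes do not start at 0. The groups overlap in every panel, with 9, 8 and 7 aspirates above the highest node in the first panels and CBX1 lower in aspirates by 0.36.

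All 6 calls rested on the moderated test of means. The rank-sum test with the same adjustment called 0 genes (0%), with 1444 genes (9.55%) at an unadjusted p under 0.05, and gave adjusted p-values of 0.0957 for LOC476825, 0.142 for LOC100855558, 0.0844 for PLEKHH2 and 0.118 for UTS2B, SLC35C2 and CBX1. LOC476825, LOC100855558, PLEKHH2 and UTS2B stayed past limma's threshold whichever of the 51 arrays was left out.

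Just beyond the threshold stood genes with other roles. GPC2, a cell surface proteoglycan, differed by 0.19 and WWTR1, the Hippo pathway coactivator TAZ, by 0.37, each with a limma adjusted p of 0.0565. On the lower side, the protein kinase A anchor AKAP7 differed by -0.42 (0.0565), C8H14orf28 by -0.50 (0.0671) and DMAC2L by -0.39 (0.0772). The mitochondrial DNA polymerase subunit POLG2 differed by -0.29, the protein phosphatase regulator PPP1R10 by -0.39, the mitochondrial ribosomal gene MRPL54 by -0.19 and ZNF691 by -0.32, with adjusted p-values from 0.0799 to 0.0916.

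Reading every probe set separately gave more calls. Of 42860 probe sets, 44 (0.103%) were higher and 14 (0.0327%) lower in aspirates. They included all 6 genes above, 30 other genes and 21 probe sets with no single symbol. Of these 30 genes, 9 passed on the same probe set that stood for the gene in the comparison over genes: ALAS2, GNG11, GPC2, WWTR1, CD28, SNCG (0.72) and AZIN2 (0.25) were higher, and AKAP7 and C8H14orf28 lower. The others passed on a probe set of lower mean level. The genes named from here to the end of the paragraph were picked after their values were seen. Among the others, higher probe sets belonged to CD9, a tetraspanin of platelets and other cells (0.73), the co-stimulatory receptor CD27 of lymphocytes (0.52), the actin regulator CALD1 (0.52), the basement membrane laminin LAMB1 (0.28), the serotonin receptor HTR2A (0.36) and NRGN (0.41). Lower ones belonged to the spindle protein SPDL1 (-0.58), the myosin phosphatase partners MPRIP (-0.54) and PPP1R12B (-0.20), and the endosomal protein ANKFY1 (-0.32). Of the probe sets with no single symbol, 18 were higher and 3 lower, and the largest difference among them was 4.22 (11.86 against 7.64).

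Platelet-linked genes gave a large but uncalled difference in 1 gene. GNG11, a G protein gamma subunit gene abundant in platelets, ran from 7.55 through 9.70 to 11.48 in aspirates and from 7.35 through 8.51 to 10.42 in nodes, with 17 aspirates above the node median. Its difference of 1.11 ± 0.25 (SE) missed the threshold over all genes (limma adjusted p = 0.0615). The same probe set passed over all probe sets (0.0425). GNG11 also passed with marginal zone nodes added, the most variable probe set or array weights. Its other probe set differed by 0.38 and did not pass (limma adjusted p = 0.208 over all probe sets). Of 21 measured platelet genes, 17 had a positive difference and 3 an unadjusted p under 0.05, with a median of 0.073. Over all genes, 46.6% had a positive difference and 5.69% were higher at that threshold. The platelet chemokine gene PPBP differed by 0.0013 on its highest probe set and by 0.81 on another (limma adjusted p = 0.0552 over all probe sets).

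T-cell genes were the list with the most members at small p-values. Of 23 measured members, 22 had a positive difference and 14 an unadjusted p under 0.05 in that direction, where 5.69% of all genes had one, but 0 passed the adjusted threshold. The median difference was 0.26. CD28, a co-stimulatory receptor of T cells, ran from 5.57 through 6.12 to 7.31 in aspirates and from 5.50 through 5.82 to 6.38 in nodes, with a difference of 0.38 ± 0.089 (SE; limma adjusted p = 0.0671). Over all probe sets CD28 passed (0.0498), as it did with the most variable probe set of each gene and with array weights. CD28 has 1 probe set, so changing the choice of probe sets left its values the same. Only the features fitted and adjusted beside it differed. CD3E, a chain of the T-cell receptor complex, differed by 0.26 (adjusted p = 0.183), and its other probe set by 1.07 (0.0949 over all probe sets). CD5 differed by 0.29, CD7 by 0.39, CD8A by 0.31, the T-cell transcription factor LEF1 by 0.63 and the signalling adaptor SH2D1A by 0.60. Each dog's mean over the list ran from 7.08 through a median of 7.68 to 8.75 in aspirates and from 7.07 through 7.48 to 8.14 in nodes, so the groups overlapped, with 2 aspirates above the highest node.

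All 16 measured cytotoxic and natural killer cell genes had a positive difference, against 46.6% of all genes, and the median was 0.27. Of these, 6 had an unadjusted p under 0.05, where 5.69% of all genes had one in that direction. The activating receptor NCR3 differed by 0.22 ± 0.054 (SE; limma adjusted p = 0.0772) and the lectin-like receptor KLRD1 by 0.68 (adjusted p = 0.283). GZMB, a granule protease of killer cells, spanned 5.29 to 10.66 in aspirates and 4.92 to 10.13 in nodes, and differed by 0.57 (adjusted p = 0.686). Without the arrays of dogs 12 and 41, members with an unadjusted p under 0.05 numbered 13 of the T-cell and 3 of the cytotoxic list.

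**Figure D3:**
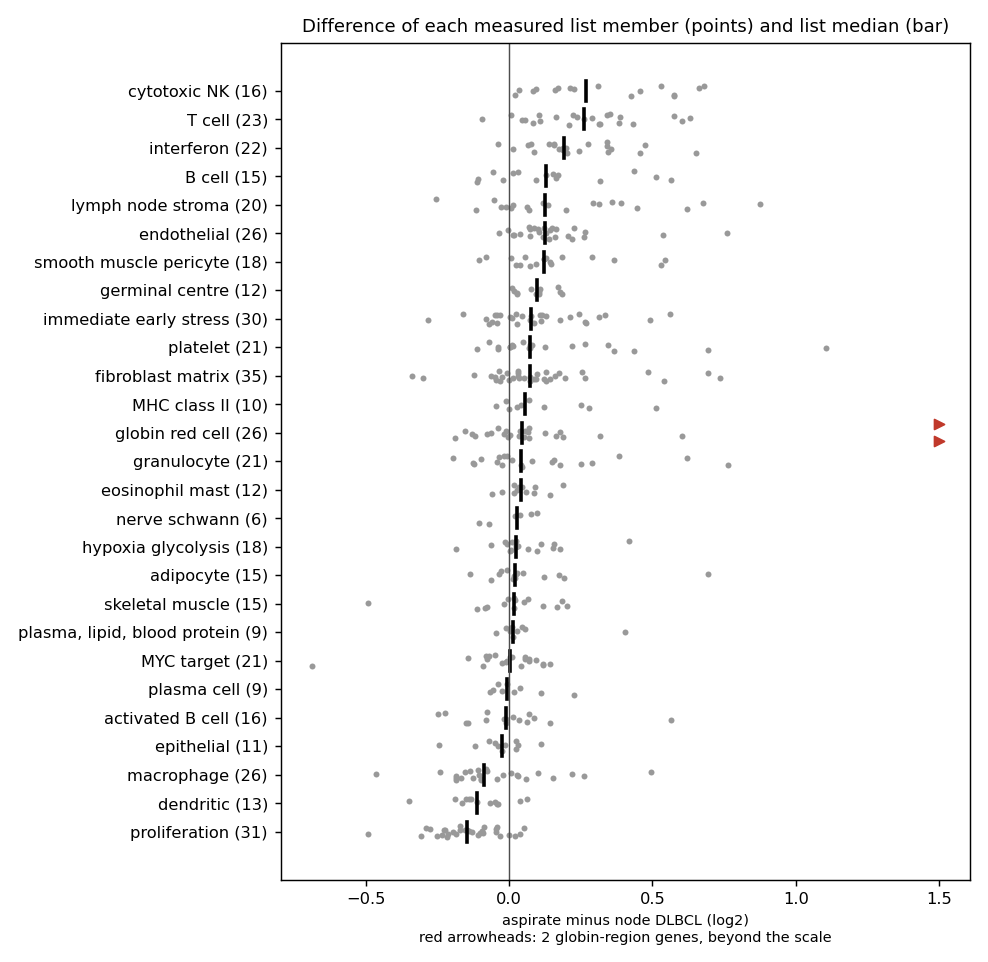
Difference between aspirates and lymph node DLBCL (log2) of each measured member of 27 gene lists; grey points are genes, black bars are list medians, and the number measured is in parentheses. Medians run from -0.15 in proliferation to 0.27 in cytotoxic and NK genes, and the 2 globin-region genes marked by arrowheads are the only members past the threshold.

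Stromal and vascular genes were mostly positive. Over all genes, 46.6% had a positive difference and 5.69% were higher at an unadjusted p under 0.05. Among 26 endothelial genes, 24 had a positive difference and 12 an unadjusted p under 0.05, with a median of 0.12. These numbers were 23 and 8 without the arrays of dogs 12 and 41. The endothelial cadherin CDH5 differed by 0.12 (limma adjusted p = 0.211) and the lymphatic growth factor receptor FLT4 by 0.16 (0.244). The caveolar protein CAV1 had the largest difference of the list, 0.76 (0.250). From the preset genes, PECAM1 differed by 0.23 (0.837) and VWF by 0.26 (0.556). CDH5, FLT4 and PECAM1 turned to -0.012, -0.051 and -0.17 on their most variable probe sets. Smooth muscle and pericyte genes were positive in 16 of 18 (median 0.12), with CALD1 at 0.53 and DES at 0.12. Of the 18, 7 were higher and 1 lower at an unadjusted p under 0.05.

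Of 20 measured lymph node stroma genes, 15 had a positive difference, against 46.6% of all genes. At an unadjusted p under 0.05, 4 were higher and 1 lower, against 5.69% and 4.73% of all genes. Differences in this list ran from -0.26 to 0.87 with a median of 0.13. CCL21, which guides T cells into the node, ran from 7.55 through 8.20 to 10.90 in aspirates and from 7.28 through 7.95 to 8.85 in nodes, with 8 aspirates above the highest node and a difference of 0.68 (limma adjusted p = 0.192). Its partner CCL19 reached 11.98 in the aspirate of dog 33, whereas the median of all aspirates was 7.82 (difference 0.62, adjusted p = 0.265). The chemokine genes CXCL14 and CXCL13 differed by 0.39 and 0.29 (adjusted p = 0.228 and 0.851). In the matrix list, the basement membrane collagen COL4A1 was also highest in dog 33, at 11.36 against an aspirate median of 7.37 (difference 0.74, adjusted p = 0.265). Of 35 fibroblast and matrix genes, 24 had a positive difference, with a median of 0.071. At an unadjusted p under 0.05, 8 of these 35 were higher and 0 lower. The main fibrillar collagen genes COL1A1 and COL3A1 differed by 0.48 and 0.030, and decorin, DCN, by -0.30, none of them passing.

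Myeloid lists showed no shared direction, where 46.6% of all genes had a positive difference. Macrophage genes were positive in 9 of 26 (median -0.089), dendritic cell genes in 2 of 13 (median -0.11), granulocyte genes in 12 of 21 (0.042) and eosinophil and mast cell genes in 10 of 12 (0.041). The complement gene C1QA, expressed by macrophages, differed by -0.24 and the monocyte co-receptor CD14 by -0.11, against 0.62 for the neutrophil gene S100A8, whose aspirates ran from 6.30 to 12.85. Markers of adipocytes, skeletal muscle, nerve and epithelium had medians of 0.019, 0.016, 0.028 and -0.026. Genes of blood plasma proteins, made mainly in liver, had a median of 0.014. The part of any of these cells in the differences was not tested.

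No gene of the tumour cell lists passed the threshold. Proliferation genes had the lowest median, -0.15, with 28 of 31 members negative, where 46.6% of all genes were positive. Only 2 members had an unadjusted p under 0.05, CENPF (-0.49) of the kinetochore and the nucleotide synthesis enzyme TYMS (-0.19). Over all genes, 4.73% were lower at that threshold. The growth regulator MYC ran from 9.03 through 11.15 to 11.95 in aspirates and from 10.51 through 11.66 to 12.46 in nodes, with 24 of 32 nodes above the aspirate median. Its difference of -0.69 ± 0.18 (SE) did not pass (limma adjusted p = 0.106), and MYC target genes as a list had a median of 0.0039.

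Germinal centre genes were positive in 12 of 12 with 0 at an unadjusted p under 0.05 and a median of 0.099; BCL6, the germinal centre repressor, differed by 0.18. Activated B-cell genes had a median of -0.011, plasma cell genes of -0.0079 and MHC class II genes of 0.055. Interferon-response genes were positive in 21 of 22, with a median of 0.19 and again 0 members at an unadjusted p under 0.05. Over all genes, 46.6% had a positive difference and 5.69% were higher at that threshold. Each dog's mean over the interferon list averaged 10.56 ± 0.75 (SD, n = 19) in aspirates and 10.33 ± 0.78 (n = 32) in nodes. Immediate early and stress genes, which can respond quickly to handling, had a median of 0.076, with IER2 at 0.24 and FOS at 0.029. Hypoxia and glycolysis genes had a median of 0.024.

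**Figure D4:**
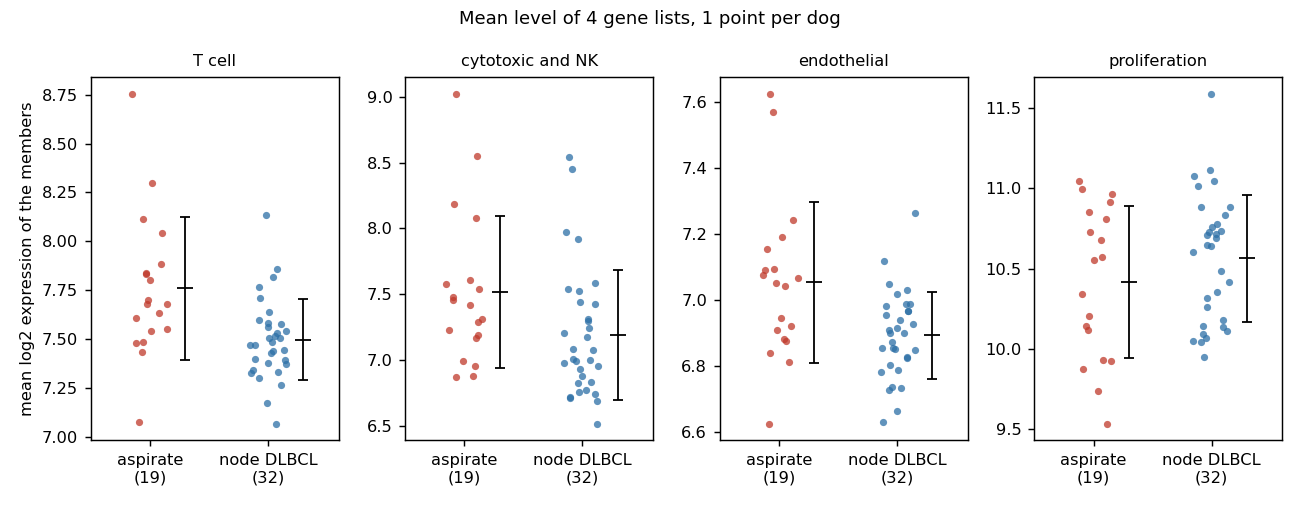
Mean log2 expression over the measured members of the T-cell, cytotoxic and NK, endothelial and proliferation lists; each point is 1 dog, the bars show the mean and 1 SD, and the vertical axes do not start at 0. T-cell levels reach 8.75 in aspirates and 8.14 in nodes, and the groups overlap in all 4 panels.

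Most genes were slightly more variable in aspirates than in nodes. The SD was larger in aspirates for 8811 of 15115 genes (58.3%), the median SD was 0.254 against 0.243, and the median ratio was 1.06. LOC476825 departed from this with an SD of 3.49 against 1.15. By the median absolute deviation, which single arrays move less, 8288 of 15115 genes were more variable in aspirates. The median ratio of that measure was 1.05.

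The specimen difference was also compared between IGHV states, over 48 dogs with a known state. By limma's interaction term, 2 genes passed (0.0132%), with 1555 (10.3%) at an unadjusted p under 0.05. CLK3, a kinase of splicing factors, averaged 8.94 ± 0.20 (SD, n = 7) in aspirates of static dogs and 9.60 ± 0.22 (n = 11) in those of ongoing dogs, against 9.39 ± 0.14 (n = 18) and 9.26 ± 0.23 (n = 12) in nodes. In aspirates the static and ongoing ranges of CLK3 did not overlap (highest static 9.19, lowest ongoing 9.27), whereas in nodes they did. CLK3 was picked by the interaction in these same values, so its ranges only describe it. The share of all genes with such ranges was not counted. ATF7IP2, a chromatin regulator gene, had the opposite order. For LOC476825 the interaction was -2.39 and did not pass (limma adjusted p = 0.547).

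Outcome labels were compared between the groups, in the time unit of the labels, which they do not state. Median progression-free survival (PFS) was 270 (95% interval 224 to 523) in 19 dogs with aspirates and 178 (142 to 288) in 30 with node samples, with 16 and 27 events. The hazard ratio, aspirate over node, was 0.582 (0.311 to 1.09; log-rank permutation p = 0.0770). Median overall survival (OS) was 367 (lower bound 271, upper bound not reached) against 240 (192 to 569), with 13 and 23 events and a hazard ratio of 0.522 (0.256 to 1.06; log-rank permutation p = 0.0663). Neither passed 0.05. Within static dogs the p-values were 0.146 for PFS and 0.0835 for OS, and within ongoing dogs 0.550 and 0.565 (log-rank permutation tests).

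**Figure D5:**
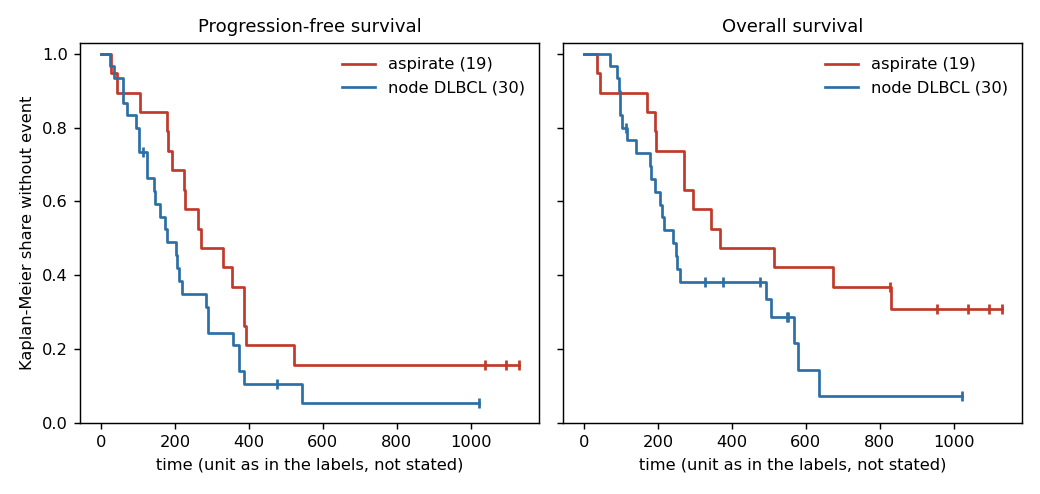
Kaplan-Meier share of dogs without an event by time, in the unstated unit of the labels, for 19 dogs with aspirates and 30 with lymph node DLBCL; vertical ticks are dogs whose follow-up ended without an event. The aspirate curve lies above the node curve over most of the time axis, with medians of 270 and 178 (PFS) and 367 and 240 (OS), and neither difference passed 0.05.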

How the data were processed

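Total RNA was amplified, biotin-labelled and hybridised to Affymetrix canine arrays, per the labels' protocols. Log2 levels of 43035 probe sets were deposited, made by the authors with Affymetrix Expression Console and RMA, per the submitters' processing notes; versions, batches and the genome build are not given in the sources used here. RMA pulls array distributions together, so levels are relative, and no measure of background was used. Values ran from 2.82 to 15.11 with 0 missing. The 2 most alike arrays correlated at 0.989 and shared 1 identical value, so no library was counted as deposited more than once. With 1 dog per array, the tests set group differences against the spread between arrays. In that spread, dog, sampling and array handling cannot be told apart.

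A platform table gave 1 symbol to 29254 probe sets, several to 439 and none to 13167, and 175 were controls. Of the 15115 genes, 8254 had more than 1 probe set, and 14295 symbols stood in the RefSeq table of UU_Cfam_GSD_1.0, which was used for names and neighbours only. Groups were compared with limma 3.58.1 (lmFit, default eBayes, two-sided, threshold 0.05) in R 4.3.3 without covariates. On simulated data with 15115 genes, 85 of 100 differences of 0.5 and 98 of 100 of 1 were recovered, with 9 false calls. These counts hold for the simulated data only. How often differences of these sizes would be called among the measured genes was not tested. Permutation tests used 100000 draws. Correlations were taken within the 14 aspirates above the gap, not over all 19 as planned, since the aspirates formed separate clusters. The 14 held a further gap, so these correlations still include an offset between clusters. Survival 3.8.3 gave hazard ratios; events were taken as indicator 1, because PFS and OS times were equal in all 6 dogs whose PFS indicator was 0. Plots used matplotlib 3.10.9 (Python 3.11.15).

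The members, the 27 gene lists and the rule for named genes were chosen with earlier results of these data known. The rule took up to 12 called genes each way, filled up to 8 with the uncalled genes of smallest p, then called members of each list, or else the 2 with the smallest p, and preset genes, among which HBM, HBQ1, PF4, CR2 and MKI67 were not measured through a probe set of 1 symbol. Other list members are given as examples. Alternatives changed the probe set per gene, normalization, array weights, covariates, test and arrays. Those on leaving out the arrays of dogs 12 and 41 for the gene lists and the interaction were added after seeing the data.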

Additional observations from a re-analysis of the deposited data

Results flagged for a closer look

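The aspirate minus node difference itself differed between IGHV states for CLK3, by -0.79 (static minus ongoing, log2; limma interaction adjusted p = 0.000368). CLK3 was -0.46 in static dogs and 0.34 in ongoing dogs. Its other probe set gave -0.51, with an adjusted p of 0.121 over all probe sets. Without the arrays of dogs 12 and 41 the CLK3 interaction was -0.76 (adjusted p = 0.00123).

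ATF7IP2 was flagged for the same reason, with an interaction of 1.00 (adjusted p = 0.0181). Over all probe sets the ATF7IP2 interaction did not pass (limma interaction adjusted p = 0.0519). Levels of ATF7IP2 were 8.49 ± 0.17 (SD, n = 7) in aspirates of static dogs and 7.78 ± 0.33 (n = 11) in those of ongoing dogs, and 8.08 ± 0.32 (n = 18) and 8.37 ± 0.32 (n = 12) in nodes. Without the arrays of dogs 12 and 41 its interaction was 0.94 and no longer passed (adjusted p = 0.0594).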

How the results depend on the processing

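Against 5 genes higher and 1 lower in limma, 14 and 4 were called with the marginal zone nodes added, 35 and 16 with the most variable probe set of each gene, 50 and 38 with array weights and 44 and 14 probe sets without choosing 1 per gene. The mean of the probe sets called 8 higher, genes above the median level 1 higher and 0 lower, and the rank-sum test 0 and 0 (1444 genes at an unadjusted p under 0.05). No gene was called lower (limma count 0) with IGHV status as a covariate, renewed quantile normalization, centring on array medians, trended robust eBayes, without the aspirate of dog 12, or without dogs 12 and 41. Leaving out each array in turn gave 4 to 22 higher and 0 to 7 lower calls; the most came without the aspirates of dog 42 (22 higher) and dog 51 (16 higher, 7 lower). SLC35C2 lost its call in 12 of these and CBX1 in 25, with adjusted p-values up to 0.0916 and 0.0962, and in 9 and 8 of the 12 other settings. The interaction called 11 genes with array weights and 1 without dogs 12 and 41. Of 88 named genes, 10 turned sign in at least 1 setting, none of them called: with the most variable probe set PPP1R10 (0.048), CDH5 (-0.012), FLT4 (-0.051), AMBP (-0.0061), COL3A1 (-0.060) and PECAM1 (-0.17); with the mean of probe sets COL3A1 (-0.029) and EGR1 (-0.0040); with array weights PPBP (-0.053), COL3A1 (-0.0086), FOS (-0.41) and EGR1 (-0.061); with marginal zone nodes KRT8 (0.0077), FOS (-0.016) and EGR1 (-0.022); with IGHV status as a covariate PPBP (-0.0062) and FOS (-0.12); without the aspirate of dog 12 PPBP (-0.013) and FOS (-0.047); and without dogs 12 and 41 PPBP (-0.0093). The cause was not tested. Of the uncalled genes, 15 passed in at least 1 setting. List medians changed sign in 14 of 320 comparisons, in 7 lists whose medians lay within 0.042 of 0; the granulocyte median went from 0.042 to -0.018 among genes above the median level. With array weights the eosinophil and mast cell median was 0.014 and the macrophage median -0.027. The survival differences missed 0.05 also with Gehan weights (0.0692 for PFS, 0.124 for OS) and with marginal zone nodes added (0.141 and 0.0752). No paired analysis was possible because each dog gave 1 array and replicate numbers follow accession order. Low levels near background were not set against a detection measure.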
